A study of Mus musculus with 6 samples.

Results

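The autophagy genes of immature dendritic cells were followed through a short exposure to fluid shear stress (FSS). The 37 genes were taken by symbol from a list of the autophagy machinery, and all 37 were found among the 22899 genes of the expression table. They were sorted by role into the initiation kinase complex (5 genes), the class III PI3-kinase complex (5), membrane supply and readers of its lipid product PI3P (5), the ubiquitin-like conjugation enzymes (11), the ATG8 proteins (5), the cargo receptors (5) and the transcription factor gene Tfeb (1). The cells were primary cultures, made from bone marrow of male C57BL/6 mice aged 7 weeks in 7 days of culture with the recombinant cytokines GM-CSF, at 20 ng/ml, and IL-4, at 10 ng/ml, after which the cells in suspension were selected by CD11c. The FSS group was loaded with 10 dyn/cm2 for 3 h in a cone-plate device, in which a turning cone drags the medium over the cells; the static group shared the marrow culture, both cytokines and the CD11c selection, without flow. Each group held 3 libraries, numbered 1 to 3. The question put to the data is which of these transcripts change level when the cells are loaded.

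Autophagy encloses part of the cytoplasm in a double membrane, the autophagosome, and delivers it to lysosomes. Starvation signals release the ULK kinase complex from mTORC1, a PI3-kinase complex marks the membrane with PI3P, ATG2 and ATG9 proteins supply lipid, and a pair of conjugation systems attaches ATG8 proteins to the membrane, where cargo receptors dock. In dendritic cells the pathway also feeds cytosolic antigen to MHC class II compartments.

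The levels are FPKM, which scale a gene's fragments by its length and by the size of the library. The unit was inferred from the values, and because sequencing depth is unknown the counting error of single genes could not be estimated. Between 10390 and 10959 genes reached 1 FPKM in a library. Separate animals or cultures are not named for the replicates, so the p-values rest on a spread between libraries that may be technical. Libraries of the same number deviated together (Pearson 0.79, 0.66 and 0.87 across genes for numbers 1, 2 and 3), and both libraries numbered 3 stood apart from the other 4. Static 2 with FSS 1 and static 1 with FSS 2 also correlated, less strongly (0.28 and 0.22). FSS replicate 3 also stood apart by itself. It had the fewest genes at 1 FPKM (10390) and the lowest median-ratio scaling factor, 0.852 against 0.95 to 1.1 in the others. Results for the 37 genes are therefore given without and with the replicate number as a block, and their counts also without the libraries numbered 3. Of the dendritic cell markers, the integrin gene Itgax, the class II genes H2-Ab1, H2-Aa and Cd74, Zbtb46 and Ccr7 were present, whereas Flt3 and Cd209a averaged under 1 FPKM. Of these 8 genes Itgax, Zbtb46 and Ccr7 were lower under FSS with the block (limma adjusted p = 0.0199, 0.0121 and 0.0091), at 0.834, 0.734 and 0.642 times the static mean, and none passed without it (0.475, 0.493 and 0.34). Among all genes tested 7.73% rose and 25.1% fell with the block. With the block and median-ratio scaling Itgax differed by -0.09 log2 and did not pass (limma adjusted p = 0.514). Zbtb46 and Ccr7 stayed lower in that fit (0.022 and 0.0143). Summed markers of macrophages and monocytes (9 genes, none at 0 in all libraries) ran from 513 to 612 FPKM in static and from 589 to 710 in FSS libraries, and those of neutrophils (8 genes, none at 0 in all libraries) from 290 to 521 and from 257 to 433. With the block the macrophage markers Mertk and Adgre1 were higher (limma adjusted p = 0.00166 and 0.0238, at 2.39 and 1.28 times the static mean) and Fcgr1 was lower (0.00338, at 0.584 times). Of the neutrophil markers S100a8 alone passed with the block, lower at 0.63 times the static mean (limma adjusted p = 0.00148). S100a9, Camp, Ltf and Ngp were at 1.05 to 1.08 times, and Mpo, Elane and Ly6g at 0.77, 0.936 and 0.98 times. Ly6g was too low to be tested. None of these 4 called markers passed without the block (limma adjusted p = 0.119 to 0.649). The part of these cells in the results below was not tested. The 5 markers of T and NK cells were under 1 FPKM in every library. In bulk RNA, fewer cells of a type and less RNA per cell cannot be told apart.

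All 37 genes were expressed, with mean levels over the 6 libraries from 3.43 FPKM (Atg10) to 352 FPKM (Sqstm1), and all 37 passed the filter of 1 FPKM in at least 3 libraries. Under FSS, 4 genes stood about as far apart from static as one another: Atg2b, Atg4c, Nbr1 and Atg14 were each between 1.87 and 1.89 times the static mean. At the other end Atg4d was at 0.654 times the static mean. Without the block none of the 37 genes passed limma at an adjusted p under 0.05 in either direction, against 0.853% of the 10899 genes tested that were higher and 0.862% that were lower. At an unadjusted p under 0.05, 4 were higher (Atg14, Atg2b, Atg4c, Nbr1) and 1 was lower (Atg4d), and 4.27% and 13.8% of all genes tested were. With the replicate block 7 rose (Atg2b, Atg4c, Nbr1, Atg14, Tfeb, Atg12, Sqstm1) and 3 fell (Atg4d, Ulk2, Atg7). Among all genes tested 7.73% rose and 25.1% fell with the block, beside 18.9% and 8.11% of the members. The members were chosen with earlier results of these data known, so these shares are a description and no set test was run. The median member differed by 0.04 log2 and the median of all genes tested by -0.12. Of the 37 genes, 12 were higher and 10 lower under FSS in all 3 pairs, as were 17.1% and 47.3% of all genes tested. Without the block no member passed with median-ratio scaling (1.42% of all genes tested higher, 0.635% lower) or with equal library totals (0.624% and 0.413%). Scaling the libraries by their median ratio moved both medians up, to 0.21 and 0.03, and with the block and this scaling 15 members rose and 2 fell, against 19.6% and 16.3% of all genes tested.

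**Figure D1:**
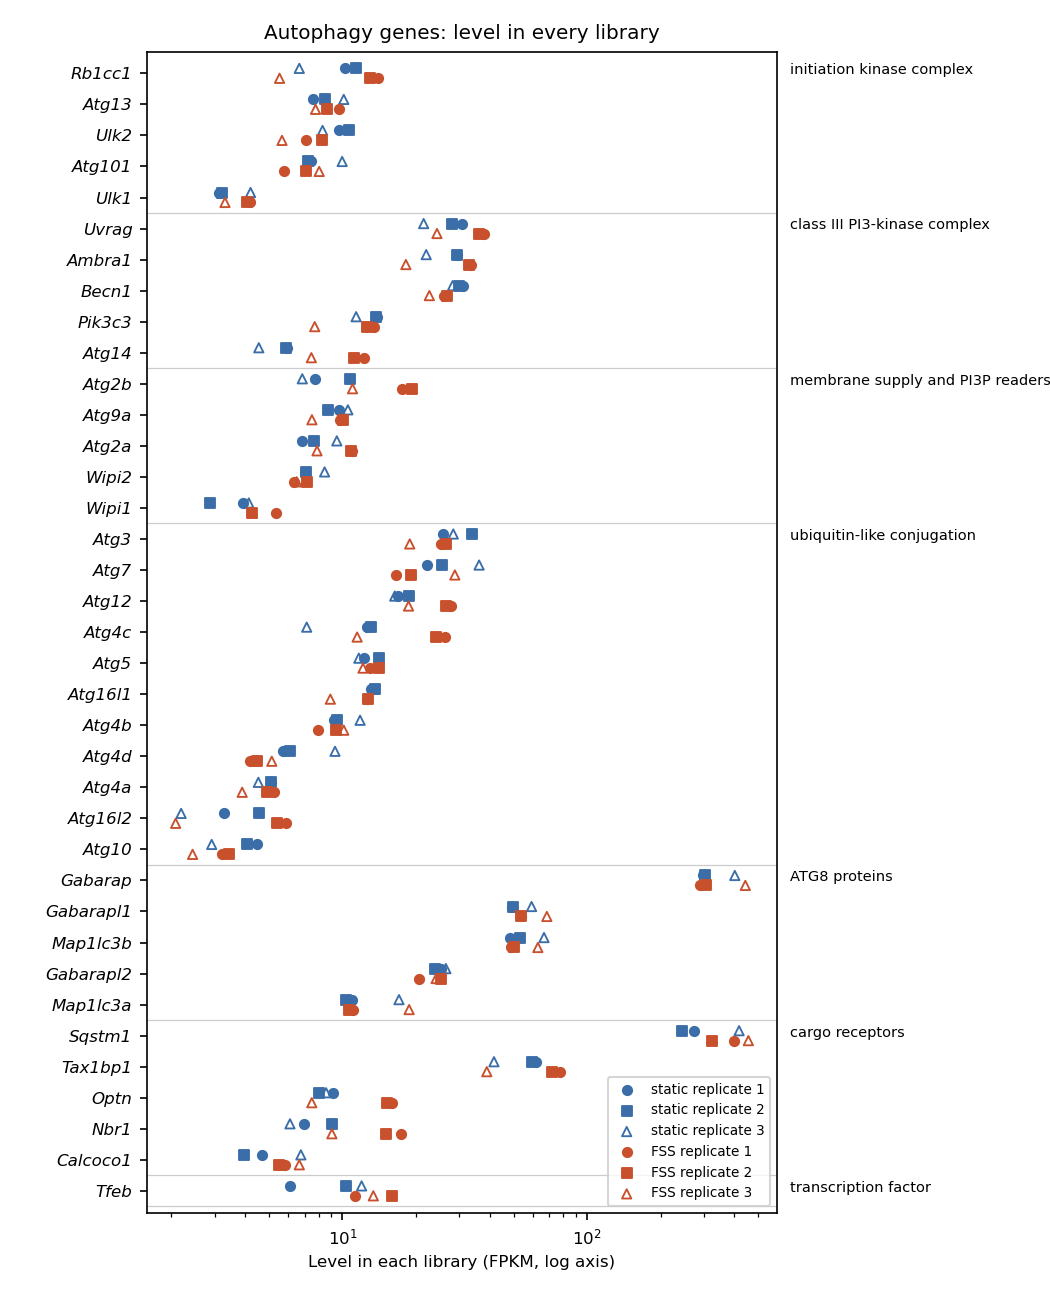
Level of each of the 37 genes in each library (FPKM, log axis), grouped by role and ordered within a role by mean level; blue marks static and red FSS libraries, circles, squares and open triangles replicates 1, 2 and 3. Sqstm1 and Gabarap lie above the other genes, at 245 to 456 and 290 to 443 FPKM, and the open triangles stand apart from the filled symbols of their own colour in many genes.

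The calls in the blocked fit changed with the pair that was left out. Leaving out both libraries of a number in turn, with the block kept, gave 4 rises and 1 fall without number 1, 5 and 1 without number 2, and 15 and 3 without number 3. The shares of all genes tested that rose were 4.24%, 5.0% and 14.3% in these fits, and the shares that fell were 15.5%, 18.7% and 24.5%. Atg14, Atg2b, Atg4c and Nbr1 rose and Atg4d fell in each of the 3 fits. Sqstm1 rose in the fits without number 2 and without number 3, and Atg12, Tfeb, Ulk2 and Atg7 passed in the fit without number 3 alone. Each of these fits held only 2 pairs, so its variances leaned more on those of other genes. The part of the smaller number of libraries in lost calls was not tested. Of the members that rose without number 3, Rb1cc1, Atg2a, Atg16l2, Optn, Tax1bp1 and Calcoco1 were lower under FSS in the pair left out. Without the block, and without both libraries numbered 3, 6 members rose (Atg12, Atg14, Atg2b, Atg4c, Nbr1, Optn; 3.48% of all genes tested) and none fell (3.34%).

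**Figure D2:**
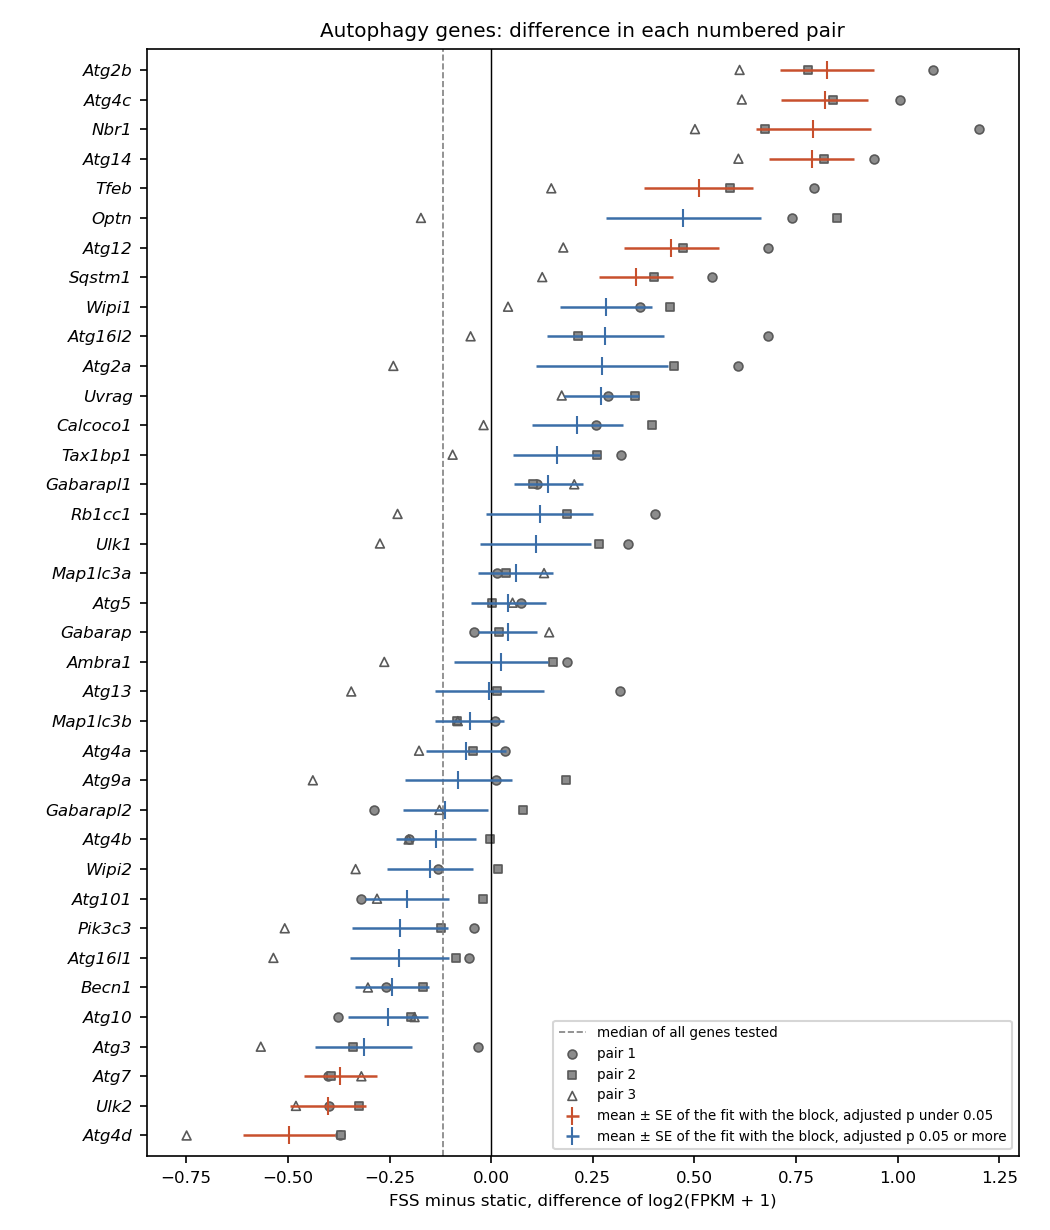
Difference between FSS and static on the log2(FPKM + 1) scale in each numbered pair (grey symbols) for the 37 genes, with the mean ± SE of the fit with the replicate block (bars, red where the adjusted p is under 0.05); the dashed line is the median of all genes tested, -0.12. Atg2b, Atg4c, Nbr1 and Atg14 were above 0.5 in all 3 pairs, and the open triangles of pair 3 lie left of pairs 1 and 2 for most of the genes that were higher.

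To show what lies before the starts of genes that moved in either direction, the 250 bases upstream of the start are printed for Atg14 and Sqstm1, which rose with the block, for Atg7, which fell with it, and for Fnip1 and Gla, genes of mTORC1 control and of the lysosome described further on. Sequences are RefSeq's, assembly GRCm38.p6, 5′ to 3′ on the strand of the gene, and the capitals mark CACGTG, the core of the CLEAR element that TFEB binds. The windows are chr14:47568435-47568684 (minus strand) for Atg14, chr11:50210821-50211070 (minus) for Sqstm1, chr6:114670846-114671095 (plus) for Atg7, chr11:54437929-54438178 (plus) for Fnip1 and chrX:134601006-134601255 (minus) for Gla.
Atg14: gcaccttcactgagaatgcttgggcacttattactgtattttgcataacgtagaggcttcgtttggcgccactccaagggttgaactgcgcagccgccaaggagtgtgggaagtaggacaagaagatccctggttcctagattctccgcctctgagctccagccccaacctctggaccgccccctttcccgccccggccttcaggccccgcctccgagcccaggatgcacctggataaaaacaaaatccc
Sqstm1: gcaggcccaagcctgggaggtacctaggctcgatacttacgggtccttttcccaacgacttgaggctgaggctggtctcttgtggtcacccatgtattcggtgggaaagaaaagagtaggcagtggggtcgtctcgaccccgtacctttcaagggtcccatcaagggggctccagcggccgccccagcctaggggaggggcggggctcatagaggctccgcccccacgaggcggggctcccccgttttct
Atg7: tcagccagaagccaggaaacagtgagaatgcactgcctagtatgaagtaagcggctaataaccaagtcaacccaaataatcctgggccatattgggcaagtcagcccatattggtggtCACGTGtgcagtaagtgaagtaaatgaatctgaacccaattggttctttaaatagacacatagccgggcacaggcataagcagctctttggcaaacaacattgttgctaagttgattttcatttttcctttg
Fnip1: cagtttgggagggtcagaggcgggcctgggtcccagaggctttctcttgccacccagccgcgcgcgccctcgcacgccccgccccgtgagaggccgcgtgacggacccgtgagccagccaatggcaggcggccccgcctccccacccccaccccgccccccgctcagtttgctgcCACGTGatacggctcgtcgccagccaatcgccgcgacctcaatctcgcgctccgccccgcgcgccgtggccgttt
Gla: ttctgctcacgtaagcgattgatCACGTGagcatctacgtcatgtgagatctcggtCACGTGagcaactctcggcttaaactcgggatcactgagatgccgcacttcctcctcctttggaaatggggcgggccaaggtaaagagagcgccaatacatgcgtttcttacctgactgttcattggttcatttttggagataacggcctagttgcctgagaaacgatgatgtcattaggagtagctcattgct

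Of the 37 genes 31 had an entry in the promoter table. CACGTG was found in the windows of 3 of them (Atg3, Atg5 and Atg7; 9.68%) in 10.1% of the windows of the genes tested, in 6.86% of those of all 27025 genes with an entry, and in 28 of 117 genes (23.9%) of the further pathway lists. On both strands, the heat shock pattern GAANNTTC or TTCNNGAA was in 1 member (Atg13), in 12.3% of the genes tested and in 14.5% of all genes. The antioxidant response core TGACNNNGC was in 3 members (Atg13, Tax1bp1, Ulk2), in 14.1% of the genes tested and in 11.5% of all. The ATF4 pattern TGATGNAA was in no member, in 2.6% of the genes tested and in 3.91% of all. None of these patterns was in the windows of the 6 genes with an entry that rose with the block. Gla held CACGTG at 2 places and Fnip1 at 1. A match of letters describes the window and does not show binding, and no match says only that these letters are absent from it. The bases after the start of each member window were looked for near the opening of GENCODE transcripts. They were found for 14 of 24 windows on the plus strand and 5 of 13 on the minus strand. The starts of the remaining windows may therefore differ from those of transcripts, which was not tested. Windows were counted by strand alone, so whether those printed for Atg14, Sqstm1 and Atg7 were among the ones found is not known. Fnip1 and Gla were not part of this check.

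In the initiation kinase complex 1 of 5 genes fell with the block, as did 25.1% of all genes tested, and none passed without it. Ulk2, a kinase related to ULK1, read 9.66, 10.62 and 8.29 FPKM in static replicates 1 to 3 and 7.09, 8.27 and 5.66 FPKM in FSS replicates 1 to 3. All FSS libraries lay below all static ones, as they did for 20.4% of all genes tested. The difference was -0.40 ± 0.18 log2 (SE, with a limma adjusted p of 0.304). Ulk2 fell with the block (limma adjusted p = 0.0163), a call lost in the blocked fits without number 1 or number 2 (0.0748 and 0.0637). Rb1cc1, which encodes the scaffold FIP200 and had the highest level of the complex, read 10.28, 11.32 and 6.66 FPKM in static and 13.91, 13.01 and 5.53 FPKM in FSS libraries. It was higher under FSS in pairs 1 and 2 and lower in pair 3, and both libraries numbered 3 were lowest in their group. Without the libraries numbered 3 Rb1cc1 rose in the blocked fit (limma adjusted p = 0.0435, against 0.513 with all pairs). Ulk1, Atg13 and Atg101, the catalytic kinase and its regulatory partners, had mean levels of 3.69 to 8.71 FPKM and log2 differences of -0.21 to 0.11, and none passed in either fit.

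The class III PI3-kinase complex had 1 gene that rose with the block, as did 7.73% of all genes tested. None passed without it. Atg14, the subunit that brings the kinase to sites of autophagosome formation, read 5.93, 5.9 and 4.55 FPKM in static and 12.3, 11.17 and 7.46 FPKM in FSS libraries. Every FSS library was above every static one, as for 5.1% of all genes tested. The log2 difference was 0.79 ± 0.21 (SE; limma adjusted p = 0.112, and 0.0277 to 0.367 with 1 library left out), and Atg14 rose with the block (adjusted p = 0.00231). Uvrag, which takes the place of ATG14 in a second form of the complex, was the most abundant gene of the group, at 30.74, 28.07 and 21.46 FPKM in static and 37.73, 36.13 and 24.33 FPKM in FSS libraries. It was higher in all 3 pairs, by 0.17 to 0.35 log2, but the groups overlapped and it did not pass with the block (limma adjusted p = 0.0563), but did with the block and median-ratio scaling together (0.00403) and with the block without number 3 (0.019). Becn1, the core subunit beclin 1, read 31.21, 30.07 and 28.18 FPKM in static and 25.91, 26.64 and 22.65 FPKM in FSS libraries. Its groups did not overlap, yet it did not pass (limma adjusted p = 0.47 without and 0.0738 with the block), and its difference of -0.24 log2 shrank to -0.08 after scaling. Pik3c3, the catalytic subunit, and Ambra1, a regulator of beclin 1, differed by -0.22 and 0.03 log2 and did not pass.

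Among the genes of membrane supply, Atg2b rose and its paralog Atg2a did not pass. Atg2b encodes a lipid-transfer protein that bridges the endoplasmic reticulum and the growing membrane. It read 7.69, 10.74 and 6.85 FPKM in static and 17.46, 19.15 and 10.99 FPKM in FSS libraries. Its groups did not overlap, although FSS replicate 3 was only just above static replicate 2. The log2 difference was 0.83 ± 0.25 (SE; limma adjusted p = 0.136, and 0.0378 to 0.396 with 1 library left out), and the gene rose with the block (adjusted p = 0.00276). Atg2a read 6.81, 7.68 and 9.48 FPKM in static and 10.89, 10.86 and 7.87 FPKM in FSS libraries, higher in pairs 1 and 2 and lower in pair 3. It rose in the blocked fit without number 3 (limma adjusted p = 0.00405, against 0.23 with all pairs). Wipi1, a PI3P reader, was low, at 2.87 to 4.14 FPKM in static and 4.25 to 5.33 FPKM in FSS libraries, and did not pass with the block (limma adjusted p = 0.089). Wipi1 and Atg2a passed with the block and median-ratio scaling together (limma adjusted p = 0.0077 and 0.0278), and Wipi1 with the block without number 3 (0.0172). Wipi2, its relative that recruits the conjugation machinery, and Atg9a, a membrane protein that carries lipid vesicles, differed by -0.15 and -0.08 log2, and neither passed.

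The conjugation enzymes moved in both directions, and the ATG4 proteases, which trim ATG8 proteins before conjugation and release them from membranes, split within the family. Atg4c read 12.58, 13.07 and 7.14 FPKM in static and 26.26, 24.18 and 11.48 FPKM in FSS libraries. The groups overlapped because FSS replicate 3 lay below static replicates 1 and 2, while within each pair the FSS library was higher, by 1.01, 0.84 and 0.62 log2. The mean difference was 0.82 ± 0.34 log2 (SE; limma adjusted p = 0.264, and 0.0482 to 0.601 with 1 library left out), and Atg4c rose with the block (adjusted p = 0.00226). Atg4d went the other way, with 5.72, 6.08 and 9.32 FPKM in static and 4.19, 4.48 and 5.14 FPKM in FSS libraries. Its groups did not overlap, the log2 difference was -0.50 ± 0.20 (SE; limma adjusted p = 0.247, and 0.169 to 0.564 with 1 library left out), and it fell with the block (adjusted p = 0.0143). Without static replicate 3, its highest library, the difference was -0.30 log2. In the RefSeq annotation of GRCm38.p6 Atg4d overlaps Kri1, a ribosome assembly gene, and without strand information their reads cannot be told apart where they overlap; Kri1 averaged 11.2 FPKM in static and 9.18 in FSS libraries (limma adjusted p = 0.137 with the block). Atg4a and Atg4b, the latter the main protease of the family, differed by -0.06 and -0.14 log2 and did not pass, and both signs turned with median-ratio scaling.

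Atg12, the ubiquitin-like protein that is joined to ATG5, read 16.92, 18.78 and 16.35 FPKM in static and 27.72, 26.45 and 18.62 FPKM in FSS libraries. FSS replicates 1 and 2 were above all static libraries, and FSS replicate 3 was just under static replicate 2. Atg12 differed by 0.44 ± 0.19 log2 (SE; limma adjusted p = 0.281) and rose with the block (adjusted p = 0.0242), a call lost without number 1 (adjusted p = 0.167 in the blocked fit). Atg7, the E1-like enzyme that activates both ATG12 and the ATG8 proteins, read 22.19, 25.44 and 36.17 FPKM in static and 16.57, 19.11 and 28.79 FPKM in FSS libraries. The groups overlapped, and each pair differed by a similar amount (-0.40, -0.39 and -0.32 log2). Atg7 fell with the block (limma adjusted p = 0.0179, against 0.522 without it), but not with the block and median-ratio scaling (adjusted p = 0.106). Its difference of -0.37 log2 was -0.18 without static replicate 3, -0.21 without FSS replicate 1 and -0.59 without FSS replicate 3. Atg3, the E2-like enzyme for ATG8 proteins, was the most abundant of the 11 by mean level (26.4 FPKM). It read 25.76, 33.73 and 28.37 FPKM in static and 25.16, 26.42 and 18.83 FPKM in FSS libraries, and did not pass (limma adjusted p = 0.457 without and 0.0786 with the block). Atg5, Atg10, the E2-like enzyme for ATG12, and Atg16l1, the scaffold that places the ATG12-ATG5 conjugate on the membrane, differed by 0.04, -0.25 and -0.23 log2 and did not pass. Atg16l2, a paralog of the scaffold, was low (2.08 to 5.86 FPKM) and differed by 0.28 log2; it passed with the block and median-ratio scaling (limma adjusted p = 0.0304) and with the block without number 3 (0.027), not with the block alone (0.168).

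The ATG8 proteins, the ubiquitin-like coat of the autophagosome, showed no call in either fit, and their log2 differences ran from -0.11 (Gabarapl2) to 0.14 (Gabarapl1). Gabarap was the most abundant of them, at 298.16, 302.4 and 401.25 FPKM in static and 289.57, 306.62 and 443.06 FPKM in FSS libraries. Its level followed the replicate number and hardly the load: in each group the library numbered 3 was highest. Map1lc3b, the usual marker of autophagosomes at the protein level, read 48.6, 53.33 and 66.62 FPKM in static and 48.89, 50.23 and 62.88 FPKM in FSS libraries. The difference was -0.05 ± 0.19 log2 (SE; limma adjusted p = 0.925), and its sign turned with median-ratio scaling. Gabarapl1 was higher in all 3 pairs, by 0.10 to 0.20 log2, and passed only with the block and the scaling together (limma adjusted p = 0.0338). Map1lc3a averaged 12.8 FPKM in static and 13.5 FPKM in FSS libraries.

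Of the 5 cargo receptors 2 rose with the block, as did 7.73% of all genes tested. The group median was 0.36 log2, against -0.12 over all genes tested. In pair 3 the group median was -0.02, with Optn, Tax1bp1 and Calcoco1 lower under FSS. Nbr1, a receptor for ubiquitinated aggregates, read 6.98, 9.03 and 6.1 FPKM in static and 17.33, 15.01 and 9.05 FPKM in FSS libraries. Its groups did not overlap, though FSS replicate 3 and static replicate 2 were nearly equal. The log2 difference was 0.79 ± 0.26 (SE; limma adjusted p = 0.161, and 0.0328 to 0.451 with 1 library left out), and Nbr1 rose with the block (adjusted p = 0.00596). Sqstm1, which encodes the receptor p62, had the highest mean level of the 37 genes, with 273.2, 244.87 and 417.79 FPKM in static and 398.85, 323.59 and 455.89 FPKM in FSS libraries. The groups overlapped through static replicate 3, and the pairs differed by 0.54, 0.40 and 0.13 log2. Sqstm1 rose with the block (limma adjusted p = 0.0216, against 0.508 without it), a call lost without number 1 (adjusted p = 0.0924 in the blocked fit). Its difference of 0.36 log2 was 0.20 without static replicate 2 and 0.59 without static replicate 3. Optn, a receptor in the clearance of mitochondria and bacteria, read 9.18, 8 and 8.57 FPKM in static and 16, 15.23 and 7.49 FPKM in FSS libraries. FSS replicates 1 and 2 were above every static library and FSS replicate 3 was below them all. Optn passed once FSS replicate 3 was left out (limma adjusted p = 0.0383), and with all libraries it did not (0.422, and 0.0919 with the block); with the block and median-ratio scaling it did (0.0113). Tax1bp1 read 61.96, 59.64 and 41.6 FPKM in static and 77.52, 71.65 and 38.89 FPKM in FSS libraries, higher in pairs 1 and 2 and lower in pair 3. Calcoco1, a receptor for the endoplasmic reticulum, was low (3.95 to 6.76 FPKM), with a difference of 0.21 log2; Tax1bp1 and Calcoco1 rose with the block and median-ratio scaling together (limma adjusted p = 0.0197 and 0.014).

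Tfeb, the transcription factor that drives lysosomal and autophagy genes, read 6.09, 10.3 and 11.97 FPKM in static and 11.3, 15.99 and 13.37 FPKM in FSS libraries. It was higher in each pair (0.79, 0.59 and 0.15 log2), and the groups overlapped through static replicate 3. Tfeb rose with the block (limma adjusted p = 0.0239, against 0.346 without it), a call lost without number 1 (adjusted p = 0.126 in the blocked fit). Its difference of 0.51 log2 was 0.25 without static replicate 1.

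Members also differed by replicate number, with a share of lower calls close to that of all genes. In a model that held group and number, 7 genes were higher and 11 lower in the libraries numbered 3 than in the others (limma, adjusted p under 0.05), which is 18.9% and 29.7% of the 37 against 13.7% and 29.3% of all genes tested. The 7 were Gabarap, Gabarapl1, Map1lc3a, Map1lc3b, Sqstm1, Atg7 and Atg4d. Among the 11 were Atg4c (-0.92 log2), Rb1cc1 (-0.88), Atg16l2 (-0.86) and Tax1bp1 (-0.73). The 4 ATG8 genes that were higher, by 0.30 to 0.68 log2, had longest transcripts of 1112 (Map1lc3a) to 2633 bases (Map1lc3b). The median over the 37 genes was 3338 bases. Of the others that were higher, Sqstm1 had 2673, Atg7 3895 and Atg4d 5951 bases. Across the 37 genes the difference of number 3 from numbers 1 and 2 fell with the length of the longest transcript (Spearman rho -0.42), as it did across 10683 genes tested (rho -0.44); genes of one library share its depth and RNA, so no p is given. For the difference between FSS and static the same rho was 0.13 over the 37 genes. Pair 3 also gave lower FSS values: the median member differed by 0.11, 0.10 and -0.17 log2 in pairs 1, 2 and 3, and the median of all genes tested by -0.08, -0.07 and -0.22. The part of transcript length in these results was not tested further.

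**Figure D3:**
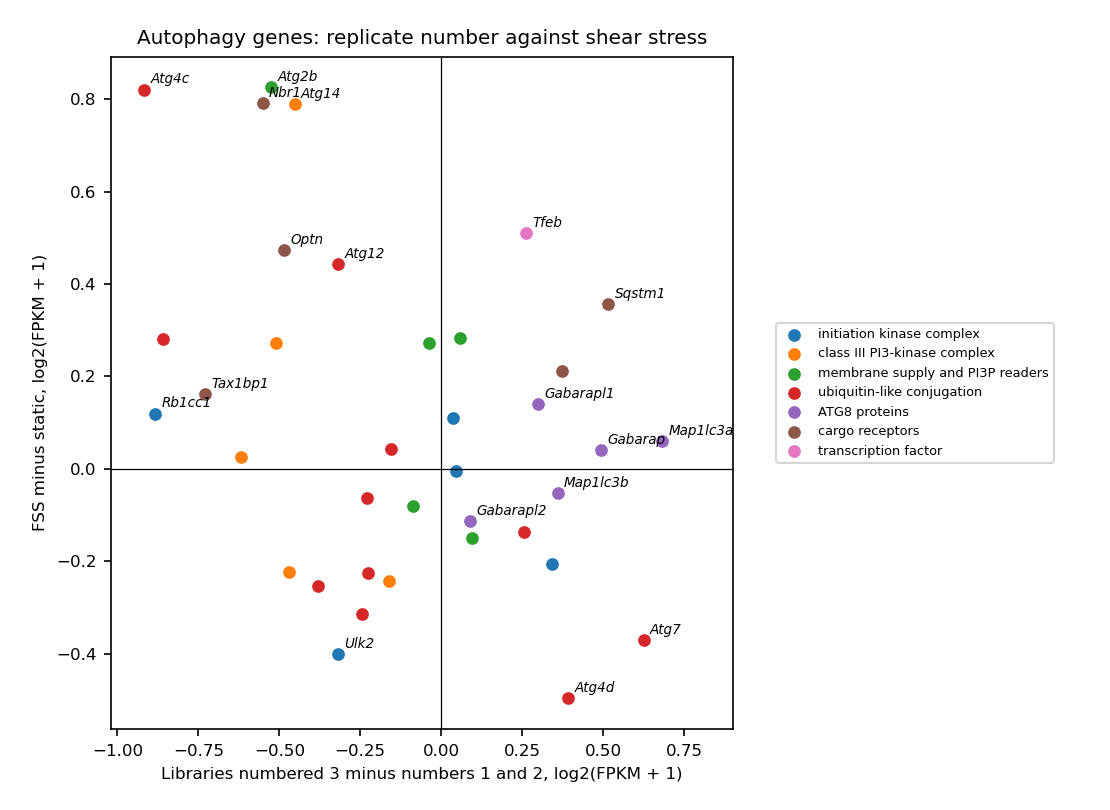
Each of the 37 genes by its difference between the libraries numbered 3 and numbers 1 and 2 (x axis) and its difference between FSS and static (y axis), both on the log2(FPKM + 1) scale, coloured by role. Atg4c, Atg2b, Nbr1 and Atg14 lie at the upper left, higher under FSS and lower in number 3, while the ATG8 genes lie near 0 on the FSS axis and to the right.

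Genes outside the 37 were taken from 5 further lists of the pathway, 140 genes of which 135 were tested. Without the block 1 of these rose and 2 fell, and with it 14 rose and 13 fell, beside the background shares of all genes given above. Of the genes named from these lists, only Ddit4, Rraga and Rab7b passed without the block; for the others (Fnip1, Fnip2, Flcn, Gla, Ctsd, Tfe3, Bnip3, Retreg3, Keap1, Fundc1, Smcr8, Wdr41, Ctsb, Gpnmb, Gusb and Atp6v1b2, beside Rragd) the limma adjusted p without it was 0.0733 to 0.715. The list of mTORC1 and AMPK, which restrain and start autophagy according to amino acids and energy, held 40 genes and had the most calls. Of 38 tested, 7 rose and 6 fell with the block, beside 7.73% and 25.1% of all genes tested. Rragd, a Rag GTPase that recruits mTORC1 to lysosomes, read 1.42, 1.35 and 0.81 FPKM in static and 4.21, 3.85 and 2.26 FPKM in FSS libraries, and rose with the block (limma adjusted p = 0.0011, against 0.0733 without it). Its partner Rraga was lower in every FSS library, at 21.49, 23.02 and 23.28 FPKM in static and 10.08, 11.85 and 12.34 FPKM in FSS libraries, and fell in both fits (limma adjusted p = 0.0383 and 0.00104). Fnip1, a subunit of the folliculin complex that acts on Rag GTPases, read 32.79, 35.34 and 22.34 FPKM in static and 93.44, 72.03 and 39.5 FPKM in FSS libraries, with no overlap, and rose with the block (limma adjusted p = 0.00191). The other members of that complex, Fnip2 and Flcn, named here after their values were seen, were at 1.94 and 1.64 times the static mean and rose with the block as well (limma adjusted p = 0.00659 and 0.00583). The mTORC1 inhibitor gene Ddit4 was the gene that rose without the block (limma adjusted p = 0.0423). These unblocked calls of Rraga and Ddit4 were lost when any 1 library other than FSS replicate 3 was left out; Rraga's was also lost under median-ratio scaling (limma adjusted p = 0.056) and Ddit4's with equal totals (0.0546).

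The lysosomal genes and relatives of Tfeb gave 4 rises and 3 falls with the block among 39 tested. Of all genes tested 7.73% rose and 25.1% fell in that fit. With the block and median-ratio scaling 15 of the 39 rose and 1 fell, against 19.6% and 16.3% of all genes tested. In the libraries numbered 3, 18 of the 39 were higher and 3 lower than in the others (limma, adjusted p under 0.05). The shares of all genes tested were 13.7% and 29.3%. Gla, the lysosomal alpha-galactosidase, read 17.79, 16.84 and 27.91 FPKM in static and 37.55, 32.1 and 39.16 FPKM in FSS libraries, with no overlap, and rose with the block (limma adjusted p = 0.00365). Ctsd, the protease cathepsin D, differed by 0.23 to 0.27 log2 in the pairs and rose with the block (limma adjusted p = 0.00707), from a mean of 2068 to 2460 FPKM. Tfe3, a factor of the same family as Tfeb, went the other way, at 27.45, 30.01 and 34.7 FPKM in static and 19.62, 23.76 and 22.35 FPKM in FSS libraries, and fell with the block (limma adjusted p = 0.0108). The other calls were Ctsb and Gpnmb, which rose, and Gusb and Atp6v1b2, which fell.

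Calls in the remaining lists stand beside the 7.73% of all genes tested that rose and the 25.1% that fell with the block. Of 20 genes of autophagosome-lysosome fusion tested, Rab7b, a Rab GTPase of late endosomes, fell in both fits (limma adjusted p = 0.0387 and 0.00191), from 8.66, 7.61 and 7.79 FPKM in static to 3.19, 3.64 and 4.29 FPKM in FSS libraries, and no other gene passed. Its call without the block was lost when any 1 library other than FSS replicate 3 was left out, under median-ratio scaling (limma adjusted p = 0.0662) and with equal totals (0.0526). Of 24 further selective receptors and their regulators, Bnip3, a receptor for mitochondria, and Retreg3, a receptor for the endoplasmic reticulum, rose with the block (limma adjusted p = 0.0296 and 0.0332), and Keap1, a partner of p62, and Fundc1, another receptor for mitochondria, fell (0.0403 and 0.0463), calls lost in the blocked fit without number 3 (0.0698 and 0.075). Among 14 other genes of autophagosome formation, Smcr8 rose and Wdr41 fell with the block (limma adjusted p = 0.0352 and 0.00844); both encode partners of C9orf72, a gene that did not pass. Of the 140 genes, Atg9b, Stk36, Rragb, Prkaa2 and Sgsh did not pass the filter on low values.

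**Figure D4:**
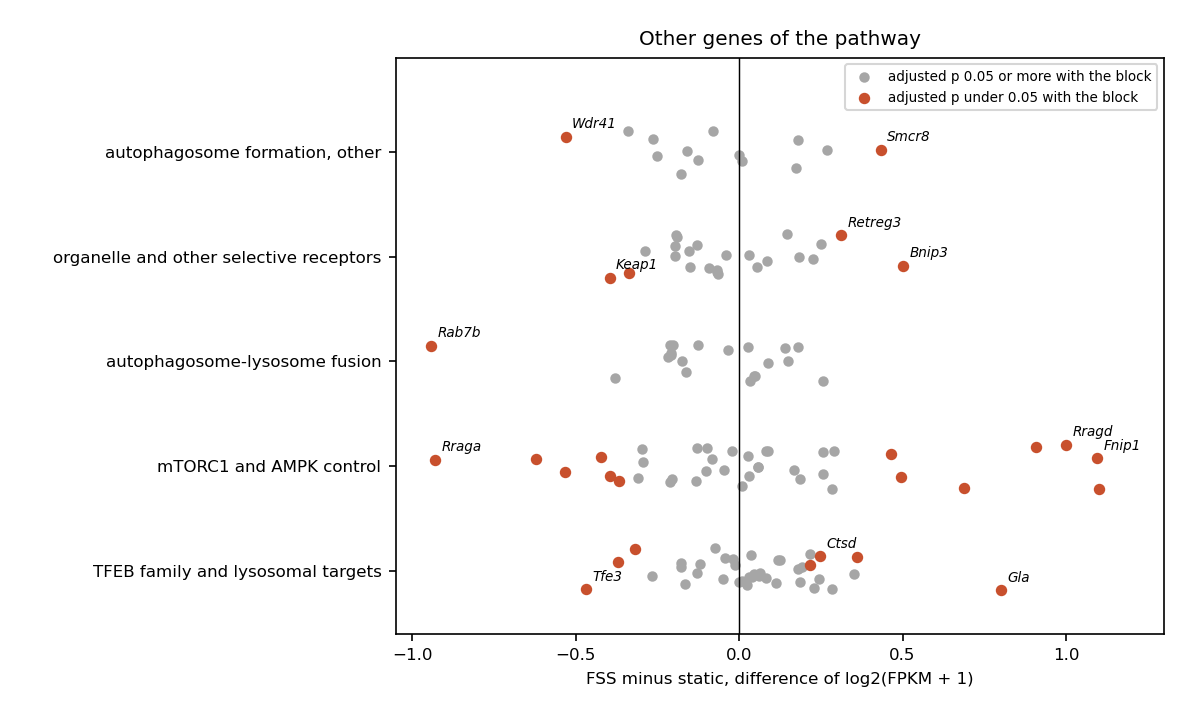
Difference between FSS and static on the log2(FPKM + 1) scale for the 135 tested genes of the 5 further lists, 1 point a gene, red where the adjusted p with the replicate block is under 0.05 and with up to 3 names a list. Rraga and Rab7b lie at the lower end (-0.93 and -0.94), and Rragd, Fnip1 and the unlabelled point of Ddit4 at the upper end (1.00, 1.09 and 1.10).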

How the data were processed

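RNA of 6 libraries was analysed: 3 static and 3 FSS, grouped by the submitters' titles, which also give the replicate numbers. HISAT and Bowtie2 are listed, with no version or role, per the submitters' processing notes. Not given in the sources used here are the quantifier, the genome build, the annotation and whether strand was used. The authors deposited values of 22899 genes labelled only as expression, per the file headers, taken here as FPKM because the sum of value times transcript length (GENCODE vM21) was 0.74 to 0.832 of that of an ideal FPKM table with median and 1.04 to 1.18 of it with longest transcripts. Both lowest sums were those of FSS replicate 3, and the next were 0.814 and 1.16, in FSS replicate 1. Values were blank for 4828 genes, and the sample files were identical to the series table. Steps of whole reads were looked for in low values of static replicates 1 and 2 alone, over 1353 genes. The commonest log2 ratio held 3.99% of the genes, against a median of 1.77% over the ratios tried. That did not settle whether such steps exist, so depth and its precision are unknown.

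The 10899 genes that reached 1 FPKM in 3 or more libraries were tested with limma 3.58.1 in R 4.3.3 on log2(FPKM + 1), FSS minus static, two-sided, variances following the mean, p-values adjusted after Benjamini and Hochberg across the whole set of tested genes, and called under 0.05. This scale understates the change of low genes. Fold values are ratios of mean FPKM. The replicate number was used as a block in a second fit because deviations from the group means of same-numbered libraries correlated across genes above 0.1 in every pair. Numbers 1 and 2 also passed this limit when crossed (0.28 and 0.22), so the limit alone does not tell their pairing. The same-numbered values were higher. The labels do not say what a number shares. The model was tested on simulated data. Values in every library are given for members that passed with or without the block and for the most abundant member of each role, beside others taken up after their values were seen; from the further lists up to 3 genes each were taken by smallest p with the block. Members and lists were chosen with earlier results of these data known. Alternatives were the block, median-ratio scaling, equal totals, left-out libraries, a pseudocount lowered to 0.1, all genes unfiltered, and a cutoff of 0.01; the fits with the block and 1 number left out were chosen after seeing the data. Promoter sequences are RefSeq's (GRCm38.p6).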

Additional observations from a re-analysis of the deposited data

How the results depend on the processing

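For the 37 genes, none rose or fell with a pseudocount of 0.1, without a filter, at a threshold of 0.01, with median-ratio scaling or with equal totals. The replicate block gave 7 rises and 3 falls, the block with median-ratio scaling 15 and 2, and the fit without both libraries numbered 3 gave 6 and 0. With the block and 1 number left out the counts were 4 and 1 (number 1), 5 and 1 (number 2) and 15 and 3 (number 3). Leaving out 1 library gave 0 to 5 rises, the 5 without FSS replicate 3, and 0 falls. The members' median of 0.04 log2 became 0.21 with median-ratio scaling, with or without the block, 0.11 with equal totals and 0.11 without both libraries numbered 3, ran from -0.0019 (without FSS replicate 2) to 0.074 with 1 library left out, and was -0.0041 with the block and without number 1.

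Over all genes 93 rose and 94 fell. Without a filter 0 and 0 did (limma; the trend and the adjustment then cover 18071 genes), at a threshold of 0.01 4 and 1, with the block 842 and 2739, with median-ratio scaling 154 and 69, with equal totals 68 and 45, with the block and scaling 2129 and 1772, and without number 3 371 and 356. With the block and without number 1, 2 or 3 the counts were 445 and 1626, 519 and 1936, and 1526 and 2608. Leaving out 1 library gave 3 to 254 rises and 0 to 161 falls, the highest without FSS replicate 3. For the 5 further lists the counts were 1 and 2, then 0 and 0 without a filter and at a threshold of 0.01, 14 and 13 with the block, 4 and 0 with scaling, 0 and 1 with equal totals, 41 and 8 with the block and scaling, and 7 and 3 without number 3. With the block and without number 1, 2 or 3 they were 10 and 6, 8 and 11, and 32 and 13. Leaving out 1 library gave 0 to 4 rises and 0 to 2 falls.

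No member called with the block changed sign under any alternative. Each of them differed in 1 direction in all 3 pairs, so leaving out a pair could not turn its sign. Signs turned only in genes without such a call. With median-ratio scaling, with or without the block, the differences became 0.15 for Atg13, 0.070 for Atg9a, 0.076 for Atg4a, 0.017 for Atg4b, 0.11 for Map1lc3b and 0.049 for Gabarapl2, and with equal totals 0.056 for Atg13 and 0.012 for Map1lc3b. Without number 3, with or without the block, they became 0.17 for Atg13, 0.098 for Atg9a and -0.011 for Gabarap. With the block and without number 1 Ulk1 was at -0.0041, Rb1cc1 at -0.022 and Ambra1 at -0.056, and without number 2 Ambra1 was at -0.038. The lowest and highest differences with 1 library left out were -0.092 and 0.096 for Atg13, -0.094 and 0.50 for Rb1cc1, -0.36 and 0.0032 for Pik3c3, -0.12 and 0.30 for Ambra1, -0.15 and 0.037 for Atg9a, -0.14 and 0.043 for Atg4a, -0.012 and 0.12 for Atg5, -0.18 and 0.27 for Map1lc3a, -0.17 and 0.074 for Map1lc3b, -0.15 and 0.18 for Gabarap and -0.020 and 0.47 for Tax1bp1. The cause of these changes was not tested.

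The depth of the libraries is unknown, so counting error in low genes such as Atg10, Atg16l2 and Wipi1 could not be given.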
